A study of Mus musculus with 44 samples.

Results

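The chromatin of the inner cell mass (ICM) was followed from the early to the late blastocyst in mouse embryos without Sox2. The comparison is that of the 4 *Sox2*-KO late ICM libraries with the 4 *Sox2*-KO early ICM libraries, 8 of the 44 ATAC-seq libraries of the series, at all 152393 peaks of the table. In ATAC-seq the Tn5 transposase cuts into open chromatin, so that insertions mark accessible DNA. *Sox2*-KO embryos came from females that were *Sox2* flox/flox with Zp3-Cre, a Cre active in the growing oocyte, mated with *Sox2* +/EGFP males. They lack the maternal and the zygotic gene, and the deleted paternal allele carries a PGK-driven EGFP by which the embryos were picked. The *Sox2* Ctrl embryos of the same matings lack the maternal gene only and keep 1 intact copy, so they are not wildtype. All ICM embryos, Ctrl included, were cultured in KSOM medium with 1 μM of the MEK inhibitor PD0325901 until the early (E3.75) or late (E4.5) blastocyst, and the ICM was freed of the trophectoderm by immunosurgery. Each library was a pool of ICMs of 1 genotype, so the values are averages over embryos, and what varies between libraries may be biological or technical. *Pou5f1*-KO and *Pou5f1* Ctrl ICMs of the same stages, 4 libraries each, served as a second line made by the same kind of cross with its own floxed allele and an mKO2 reporter.

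In the blastocyst the ICM becomes the epiblast, the source of the embryo proper, and the primitive endoderm, and MEK inhibition holds back the endoderm. Sox2 is an HMG-box transcription factor that binds DNA next to Oct4, the product of *Pou5f1*, at a composite OCT-SOX motif, and this pair is known as the core of the pluripotency network. The trophectoderm, the outer layer of the blastocyst, is specified by *Cdx2*, *Gata3* and the TEAD factors of the Hippo pathway. AP-1 is the dimer of Fos and Jun proteins that follows growth factor and stress signals.

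The deposited values are rlog values, log2-scaled insertion counts in 200 bp windows. They were tested with limma over all 44 libraries and 12 conditions, which share 1 estimate of the spread, and a peak was called increased or decreased at a Benjamini-Hochberg adjusted p-value under 0.05 over all peaks. Depth is not known. The median rlog of the 8 *Sox2*-KO libraries lay between 2.4 and 2.58. Mean correlation of a library with its replicates over peaks was 0.787 to 0.843 in early and 0.872 to 0.885 in late *Sox2*-KO ICM, so the early libraries were the more variable. Early replicate 4 had the lowest value. Peaks within 10 kb of naive pluripotency genes stood above the mean of all peaks in every *Sox2*-KO library, by 0.89 to 1.1 in early and 1.06 to 1.17 in late ICM, against 1.04 to 1.22 and 1.35 to 1.44 in Ctrl. The corresponding range near trophectoderm genes was 0.83 to 1.32 in early and 1.28 to 1.46 in late *Sox2*-KO ICM and 0.58 to 1.14 and 0.84 to 1.06 in Ctrl, and near primitive endoderm genes 0.28 to 0.48 and 0.42 to 0.63 in *Sox2*-KO and 0.36 to 0.46 and 0.22 to 0.55 in Ctrl. In pooled cells a change in the share of a cell type and a change within each cell cannot be told apart.

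The peaks at *Sox2* itself check the genotype labels. The window at chr3:34649826-34650025 (GRCm38), whose centre lies 480 bp upstream of the *Sox2* start site, had rlog values of 0.79, 0.54, 0.74 and 1.19 in the early and 0.49, 0.68, 0.65 and 1.05 in the late *Sox2*-KO libraries. It stayed low at both stages, with a difference of −0.10 (SE 0.40, adjusted p = 0.95 from limma). The Ctrl means were 2.36 ± 0.38 (SD, n = 4) and 2.98 ± 0.43 (SD, n = 4), and KO was lower than Ctrl by a log2 difference of −1.54 at the early (adjusted p = 0.0127, limma) and −2.26 at the late stage (adjusted p = 1.01e-05). The window in the coding exon, chr3:34650925-34651124, lies in the floxed part of the gene like the first. It had 1.91, 2.02, 2.77 and 1.71 in the early and 1.26, 1.14, 1.96 and 2.91 in the late *Sox2*-KO libraries, against 1.95 to 3.81 and 2.42 to 3.50 in Ctrl. Late *Sox2*-KO replicate 4 and early replicates 2 and 3 thus stood within the range of Ctrl, and the difference from Ctrl passed the threshold at neither stage (adjusted p = 0.367 and 0.0922, limma).

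Between the early and the late stage, 507 peaks increased and 102 decreased in *Sox2*-KO ICM, which is 0.333% and 0.0669% of all peaks. The median log2 increase of the called peaks was 1.67 and the largest 2.71, and the median decrease −1.75 and the largest −2.28. At 429 of the increased peaks (84.6%) and 91 of the decreased peaks (89.2%) the 4 late libraries lay beyond all 4 early ones. The same libraries made the calls, so this separation follows in part from the choice of peaks. The median difference over all peaks was −0.01, which the depth scaling of the rlog values sets near 0, so a shift of overall accessibility could not be seen. Of the calls, 83.3% were increases. With GC content and mean level removed from each library the split was 384 increased to 166 decreased, 69.8% increases. The counts depended on single libraries: 65 peaks increased without late replicate 3, 114 without late replicate 1, 147 without early replicate 4, 158 without late replicate 2, 221 without early replicate 3 and 239 without early replicate 1, but 1064 without early replicate 2. With 1 library left out, the decreased peaks numbered 20 at the least, without late replicate 3, and 182 at the most, without early replicate 2. They were 24, 35, 31, 51 and 59 without late replicates 1 and 2 and early replicates 3, 4 and 1. In a fit of the 16 *Sox2*-line ICM libraries alone 167 peaks increased and 13 decreased, and in one of the 8 *Sox2*-KO libraries alone 277 and 24. At an unadjusted p under 0.05, 11007 peaks were higher and 8797 lower.

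The same stage step in *Sox2* Ctrl ICM gave 723 increased (0.474%) and 184 decreased peaks (0.121%). In *Pou5f1*-KO ICM it gave 2320 (1.52%) and 1033 (0.678%), and in *Pou5f1* Ctrl ICM 120 (0.0787%) and 274 (0.18%). For peaks whose mean rlog reached the median the counts were 201 and 74 in *Sox2* Ctrl and 428 and 82 in *Sox2*-KO. The order of the 2 genotypes thus depended on the peaks kept. The *Sox2*-KO and Ctrl steps share no library. They had 22 increased peaks in common, 4.34% of those of *Sox2*-KO and 3.04% of those of Ctrl, and 4 decreased peaks, 3.92% and 2.17%, and no peak was called in opposite directions. With *Pou5f1*-KO the shared increased peaks were 88 (17.4% and 3.79%) and the shared decreased peaks 2 (1.96% and 0.194%), with 3 called in opposite directions. Over all peaks, which share libraries, base composition and neighbours, the *Sox2*-KO step had a Pearson correlation of 0.203 with the Ctrl step and 0.237 with the *Pou5f1*-KO step. The 4.34% shared with Ctrl and the 17.4% shared with *Pou5f1*-KO stand beside 0.474% and 1.52% of all peaks. A call in 1 step only does not show that the steps differ. Of the 507 increased peaks, 2 passed the test of a more positive step than in Ctrl. The steps of the called peaks had the same sign more often than not. Of the 507 peaks increased in *Sox2*-KO, 81.5% also had a higher late mean in Ctrl, with a median step of 0.46, where all peaks had 52.1% and 0.03. In *Pou5f1*-KO 79.1% did, with a median of 0.52 against −0.02 over all peaks. The 102 decreased peaks had median steps of −0.35 in Ctrl and −0.34 in *Pou5f1*-KO.

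The level of the called peaks in other conditions is a description. Mean rlog of the 507 increased peaks was 2.44 to 3.08 in the early and 4.17 to 4.49 in the late *Sox2*-KO libraries. The early value lay below that of *Sox2* Ctrl early ICM, 3.09 ± 0.17 (SD, n = 4), and of *Pou5f1* Ctrl late morula, 3.56 ± 0.08 (SD, n = 3), and the late value above *Sox2* Ctrl late ICM, 3.54 ± 0.19 (SD, n = 4), and *Pou5f1*-KO late ICM, 3.68 ± 0.08 (SD, n = 4). The 102 decreased peaks went from 3.11 ± 0.11 (SD, n = 4) to 1.36 ± 0.02 (SD, n = 4) in *Sox2*-KO, between 2.49 and 2.12 in Ctrl. Choosing peaks for their difference places both *Sox2*-KO means at the extremes, so nothing is read from this order. Of the increased peaks 5.72% lay within 100 bp of a start site, of the decreased 1.96% and of all peaks 10.6%. Repeat sequence took up most of the window in 15.2%, 18.6% and 23.0%. Introns held 46.0% of the increased, 59.8% of the decreased and 42.8% of all peaks.

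Each profile was next reduced to 1 value per library. A library was placed on the line from the mean early (0) to the mean late (1) profile of *Sox2* Ctrl ICM over all peaks, each Ctrl library on a line made without it. The *Sox2*-KO early libraries stood at 0.25, 0.24, 0.17 and 0.20 and the late ones at 0.44, 0.44, 0.43 and 0.38. The groups did not overlap, and the late mean was higher by 0.21 (exact permutation test over libraries, two-sided, p = 0.029, the smallest that 4 against 4 allows). Ctrl libraries held out of the line stood at 0.45 ± 0.11 early and 0.63 ± 0.11 late (SD, n = 4 each), each on its own line, so they cannot be set against the *Sox2*-KO libraries, and Ctrl and *Sox2*-KO were compared on lines made from neither. On the line of the *Pou5f1* Ctrl ICMs, in which neither *Sox2* group took part, *Sox2*-KO went from 0.23 ± 0.08 (SD, n = 4) to 0.41 ± 0.07 (SD, n = 4) and *Sox2* Ctrl from 0.29 ± 0.11 (SD, n = 4) to 0.53 ± 0.06 (SD, n = 4), with exact permutation p = 0.029 for each step. The gap to Ctrl was −0.06 at the early (exact permutation p = 0.43) and −0.11 at the late stage (exact permutation p = 0.057), so it did not pass the threshold there. On the line from *Pou5f1* Ctrl late morula (0) to early ICM (1), *Sox2*-KO stood at 0.64 early and 0.62 late (exact permutation p = 0.66), while *Sox2* Ctrl stood at 0.80 and 0.84. The gap to Ctrl on it was −0.16 at the early (exact permutation p = 0.057) and −0.22 at the late stage (exact permutation p = 0.029). That line also holds the change from whole morulae to cultured, isolated ICMs. The mean early and late profiles lay apart by 1.04 times the typical distance of a library from the mean of its group in *Sox2*-KO and 0.98 times in Ctrl (exact permutation p = 0.029 and 0.057).

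**Figure D1:**
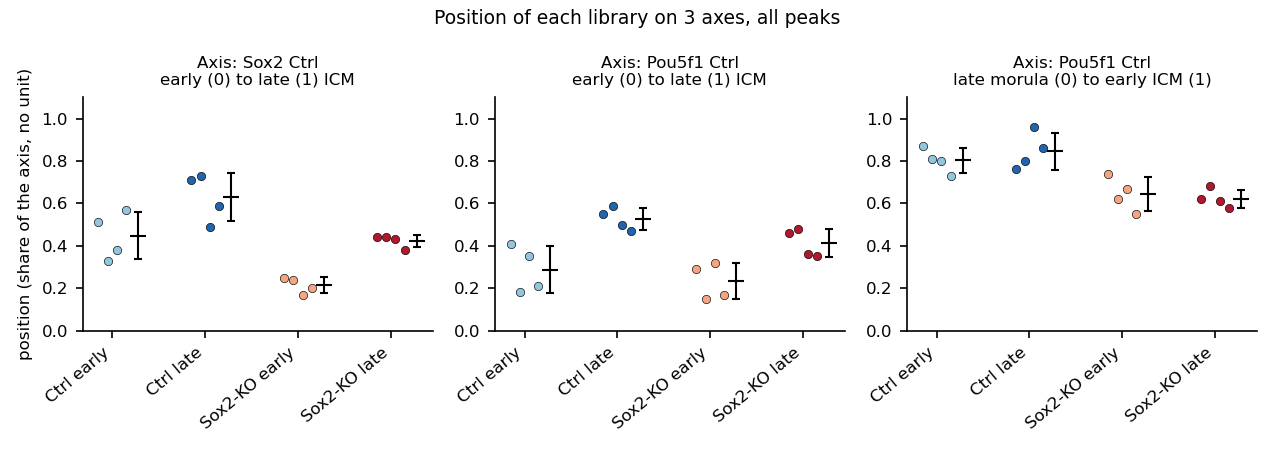
Position of each *Sox2*-line ICM library (points) on 3 lines through the mean profiles of Ctrl conditions over all peaks, as a share of the line from its start (0) to its end (1), with the mean and SD of 4 libraries beside each group. The *Sox2*-KO late libraries lie above the early ones on the *Sox2* Ctrl stage line (0.38 to 0.44 against 0.17 to 0.25) and overlap them on the morula line. On the first line each Ctrl point has a line made without it, so its height cannot be compared with those of *Sox2*-KO.

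The largest increases were at distal windows, and 6 of the 10 largest hold the AP-1 word TGAGTCA on one of the strands. The largest was in an intron of *Lactb2*, a mitochondrial endoribonuclease, at chr1:13639607-13639806. Its rlog was −0.08, −0.23, −0.11 and 0.15 in the early and 3.70, 2.25, 3.15 and 1.47 in the late *Sox2*-KO libraries, a rise of 2.71 (SE 0.42, adjusted p = 0.000199, limma) from values that were alike to values that were not. In Ctrl the means were 1.09 ± 0.40 and 1.18 ± 0.85 (SD, n = 4 each), a step of 0.09 (adjusted p = 0.963). Between the genotypes the steps differed by 2.62, which missed the threshold (adjusted p = 0.0769, limma). In an intron of *Tcf20*, a transcriptional coregulator, at chr15:82901517-82901716, the values went from 1.42, 3.32, 1.35 and 2.31 to 4.90, 3.96, 4.67 and 3.78, by 2.23 (SE 0.39, adjusted p = 0.00209). This window also rose in Ctrl, by 1.87 (adjusted p = 0.00672). The window at chr7:4098902-4099101, 20407 bp upstream of *Ttyh1*, a chloride channel gene, and 71% repeat sequence, went from 0.33, 0.15, 1.71 and 0.62 to 3.34, 2.77, 3.19 and 2.84, by 2.34 (SE 0.46, adjusted p = 0.00863). These 3 windows are printed 5′ to 3′ on the plus strand of GRCm38, as examples of the AP-1 word in capitals, read on either strand. The *Lactb2* window holds it 2 times.
Lactb2: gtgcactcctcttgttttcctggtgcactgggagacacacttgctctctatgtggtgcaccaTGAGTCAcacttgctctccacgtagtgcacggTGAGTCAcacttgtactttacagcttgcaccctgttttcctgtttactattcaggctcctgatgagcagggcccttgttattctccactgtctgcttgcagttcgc
Tcf20: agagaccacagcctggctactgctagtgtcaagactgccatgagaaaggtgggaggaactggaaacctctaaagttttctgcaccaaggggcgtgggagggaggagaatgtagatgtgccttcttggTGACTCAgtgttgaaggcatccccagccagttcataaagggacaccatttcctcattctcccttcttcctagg
Ttyh1: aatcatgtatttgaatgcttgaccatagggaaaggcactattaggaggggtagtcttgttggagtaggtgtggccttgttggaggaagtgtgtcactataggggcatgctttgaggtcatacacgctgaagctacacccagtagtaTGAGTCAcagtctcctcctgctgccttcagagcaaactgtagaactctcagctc

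The other windows with the word among the 10 were at a distance from *Kcnh2*, a potassium channel gene, and over 100 kb from the start sites of *Cited2*, a coregulator that binds CBP and p300, and of *Cand1*, which exchanges the substrate receptors of cullin ligases. They rose by 2.22, 2.32 and 2.29. The *Cited2* window was 0.38, 2.23, 0.34 and 2.10 in the early and 4.42, 3.22, 4.06 and 2.63 in the late libraries, and 2 of the early libraries were high. TEAD words (TGGAATG) were in the introns of *Ptpn3*, a tyrosine phosphatase, *Clnk*, an adaptor protein, and *Kcnq1*, a potassium channel. The *Ptpn3* window, at chr4:57287987-57288186, went from 2.80, 2.42, 2.11 and 3.26 to 5.70, 5.18, 4.97 and 4.0, by 2.32 (SE 0.38, adjusted p = 0.000453, limma). It also increased in *Pou5f1*-KO, by 1.55 (adjusted p = 0.0119, limma). The *Kcnq1* window, whose nearest start site is that of the imprinted cell cycle inhibitor *Cdkn1c* at 170991 bp, went from 0.18, 0.02, 0.66 and 0.44 to 2.08, 2.63, 2.77 and 2.83, by 2.25 (adjusted p = 0.00683), and in *Pou5f1*-KO by 1.66 (adjusted p = 0.02, limma). In an intron of *Mak*, a kinase of cilia and male germ cells, the 4 late values were 3.36, 3.42, 3.74 and 3.38. The 8 windows of *Lactb2*, *Ptpn3*, *Tcf20*, *Ttyh1*, *Cand1*, *Clnk*, *Kcnq1* and *Mak* kept their call with each of the 8 libraries left out in turn.

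Among the 10 largest decreases, the window in an intron of *Unc13b*, a synaptic vesicle priming factor, at chr4:43084237-43084436, fell from 3.51, 2.81, 3.09 and 1.98 to 0.54, 0.22, 1.05 and 0.48, by −2.28 (SE 0.46, adjusted p = 0.00947, limma). No late library reached an early one, and the Ctrl step was −1.50 (adjusted p = 0.1). In a coding exon of *Ccdc39*, which is needed for the dynein arms of cilia, the window fell from 1.57, 1.74, 2.42 and 1.54 to −0.28, −0.18, −0.20 and 0.01, by −1.98 (adjusted p = 0.0142, limma), while Ctrl went from 1.12 ± 0.79 to 1.53 ± 0.74 (SD, n = 4 each). It lies at chr3:33839009-33839208 and is printed, plus strand of GRCm38, as an example of the KLF word CCACACCC in capitals.
Ccdc39: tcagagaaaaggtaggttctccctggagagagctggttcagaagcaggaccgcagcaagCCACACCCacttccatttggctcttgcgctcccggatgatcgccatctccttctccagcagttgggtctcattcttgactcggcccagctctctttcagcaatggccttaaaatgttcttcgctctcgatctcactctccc

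*Sfrp2*, a secreted WNT antagonist, is the nearest gene of a window at chr3:83751557-83751756 that was strong in Ctrl, at 6.29 ± 0.37 early and 6.06 ± 0.35 late (SD, n = 4 each). In *Sox2*-KO it was 3.99, 3.84, 3.45 and 5.26 in the early and 1.60, 1.57, 3.08 and 2.42 in the late libraries. It was thus below Ctrl at the early stage already, by −2.16 (adjusted p = 3.42e-05, limma), and fell by a further −1.97 (SE 0.38, adjusted p = 0.00683), and by the same log2 value in *Pou5f1*-KO (adjusted p = 0.00113). The window within *Vps13d*, a lipid transfer protein, fell from 2.17, 1.85, 2.40 and 3.04 to 0.57, 0.25, 0.23 and 0.52, by −1.97 (adjusted p = 0.0284), where Ctrl went from 1.04 ± 0.84 to 2.50 ± 0.15 (SD, n = 4 each). Decreases of −1.95 to −2.16 were found in introns of *Lrmp*, *Ano9*, *Grm3* and *Pgbd5* and at intergenic windows whose nearest genes were *Ermard*, at 145389 bp, and *Nup160*. Of the 33 named peaks that were called, 14 to 30 kept the call when 1 *Sox2*-KO library was left out, 14 without late replicate 1 and 14 without late replicate 3, and none changed sign.

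**Figure D2:**
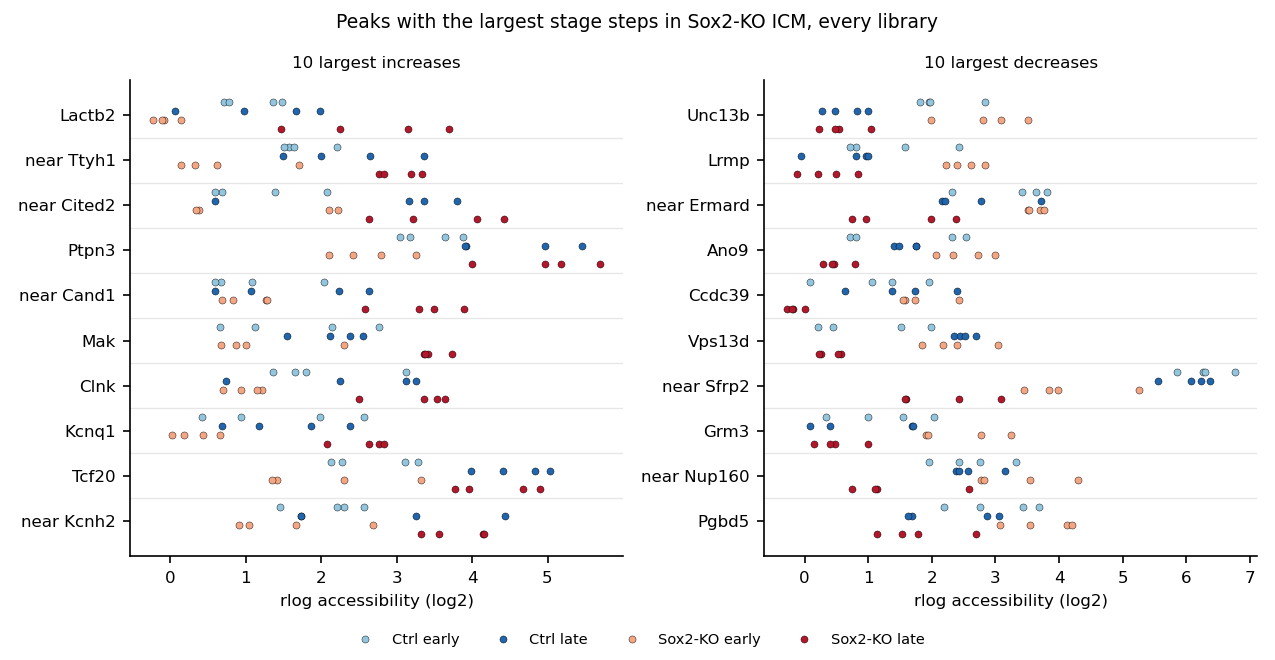
Rlog accessibility (log2, horizontal axis) of the 10 largest increases and the 10 largest decreases between *Sox2*-KO early and late ICM among peaks without overlap of the stages, named by the gene that holds the window or the nearest gene, with a point for every library. The late *Sox2*-KO points lie to the right of the early ones on the left panel and to the left on the right panel, and the window near *Sfrp2* stands at 5.5 or more only in the Ctrl libraries.

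The words in the windows were counted next. A match describes the letters in a 200 bp window and not a bound site, and the intervals cover counting error only, since neighbouring peaks are not independent. The AP-1 word was in 125 of the 507 increased peaks, 24.7% (95% exact binomial interval 21.0 to 28.6), and in 5.92% of all peaks. None of the 102 decreased peaks held it, for which the interval reaches 3.55%, but among the peaks that decreased without early replicate 1 the share was 5.08% and without early replicate 4 3.92%. In the Ctrl step it was in 11.1% of the increased and 3.8% of the decreased peaks. The CDX word GCAATAAA was in 3.94% (interval 2.43 to 6.03) of the peaks increased in *Sox2*-KO, in 1.06% of all peaks and in 0.138% (interval 0.0035 to 0.768) of the peaks increased in Ctrl. The intervals of the *Sox2*-KO and the Ctrl increases did not overlap for either word. TEAD words were in 12.4% (interval 9.68 to 15.6) of the increased and 3.92% of the decreased peaks of *Sox2*-KO, against 7.09% of all. The KLF word went the other way, with 21.6% (interval 14 to 30.8) of the decreased, 3.94% of the increased and 8.86% of all peaks. With 1 *Sox2*-KO library left out the KLF share ranged from 12.9%, without early replicate 3, to 23.5% of the decreased and from 1.54%, without late replicate 3, to 6.69%, without early replicate 1, of the increased peaks. OCT-SOX composites, taken as CTTTGT or CATTGT, 1 base of any kind and ATGCAAAT with at most 3 mismatches, were in 4.14% of the increased, 2.94% of the decreased and 5.03% of all peaks. In the Ctrl step they were in 117 (16.2%) of the 723 increased peaks. With 1 *Sox2*-KO library left out the OCT-SOX share ranged from 1.54% to 4.76% of the increased and from 0% to 6.78% of the decreased peaks of *Sox2*-KO. ESRRB words (CAAGGTCA) were in 4.34% (interval 2.74 to 6.5) of the peaks increased in *Sox2*-KO, 12.2% of those increased in Ctrl and 5.95% of all peaks, which lies within the interval of *Sox2*-KO. GATA words (AGATAAG) were in 15.7% of the peaks decreased in *Sox2*-KO, 32.1% of those decreased in Ctrl and 7.71% of all peaks. The AP-1 share of the increased peaks lay between 17.5%, without late replicate 1, and 40.1%, without late replicate 4, with 1 *Sox2*-KO library left out.

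**Figure D3:**
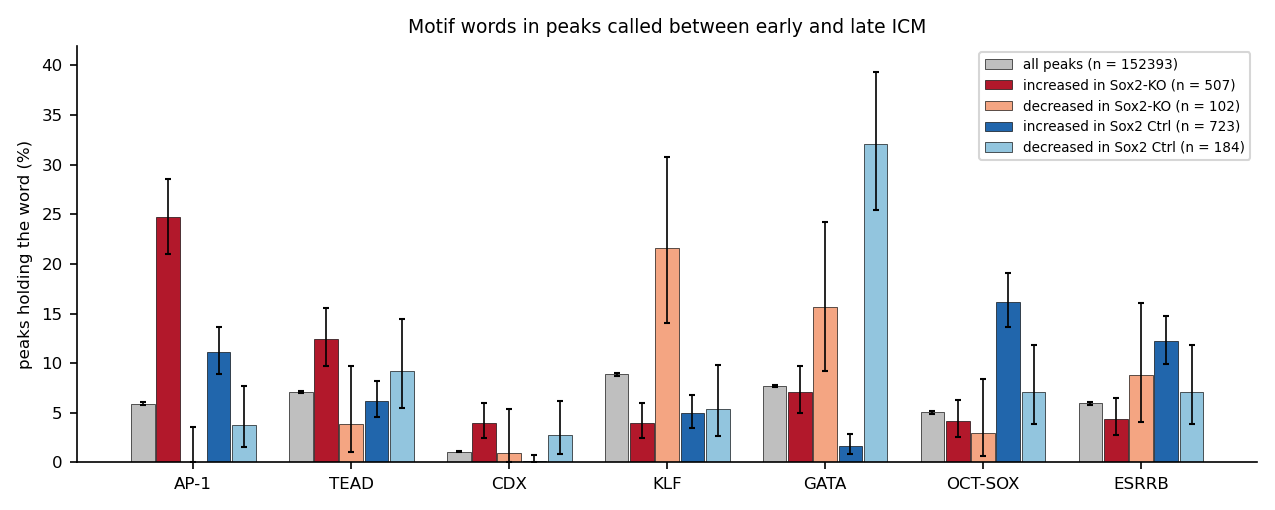
Share of peaks (%) that hold a motif word on either strand of the 200 bp window, for all peaks and for the peaks called between early and late ICM in *Sox2*-KO and in *Sox2* Ctrl, with 95% exact binomial intervals as error bars. AP-1 words were in 24.7% of the peaks increased in *Sox2*-KO and 5.92% of all peaks, KLF words in 21.6% of those decreased in *Sox2*-KO and OCT-SOX words in 16.2% of those increased in Ctrl.

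The same words were followed over all peaks that hold them, called or not, as the mean rlog of peaks with the word minus that of peaks without it in each library. For the 1613 peaks with a CDX word this was −0.14, −0.19, −0.08 and −0.23 in the early and 0.07, 0.25, 0.23 and 0.11 in the late *Sox2*-KO libraries. All late libraries lay above all early ones. Ctrl went from −0.18 ± 0.13 (SD, n = 4) to −0.26 ± 0.06 (SD, n = 4), and *Pou5f1*-KO rose as *Sox2*-KO did, from −0.45 ± 0.09 (SD, n = 4) to 0.05 ± 0.09 (SD, n = 4). *Pou5f1* Ctrl went from −0.34, −0.48, −0.28 and −0.36 to −0.30, −0.31, −0.28 and −0.17, a smaller rise with overlap of the stages. The rise without overlap was thus present in both knockouts, and in *Sox2*-KO the range with 1 *Sox2*-KO library left out was 0.29 to 0.35. Of the 1613 peaks, 20 increased (1.24%, against 0.333% of all peaks) and 1 decreased in *Sox2*-KO, against 0.0669% of all peaks. TEAD words rose in *Sox2*-KO from 0.07, 0.09, 0.08 and −0.04 to 0.16, 0.14, 0.23 and 0.14, again without overlap, and stood in Ctrl at 0.01 ± 0.06 and −0.06 ± 0.11 (SD, n = 4 each). In *Pou5f1*-KO the TEAD means rose alike, from 0.10 ± 0.10 to 0.21 ± 0.06 (SD, n = 4 each). In *Pou5f1* Ctrl they were −0.11 and −0.10. STAT words (TTCCNGGAA) rose from 0.05 to 0.10 in the early to 0.17 to 0.27 in the late *Sox2*-KO libraries, with Ctrl means of 0.08 and 0.12. The STAT means were 0.07 and 0.15 in *Pou5f1*-KO and 0.06 and 0.11 in *Pou5f1* Ctrl.

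AP-1 words, the most common in the increased peaks, were less even between libraries. The early values were −0.18, −0.00, −0.18 and −0.12 and the late ones 0.41, 0.11, 0.25 and −0.06, so that late replicate 4 lay within the early range. Ctrl late libraries were spread too, at 0.26, 0.17, −0.05 and −0.08, after early values between −0.11 and −0.06. The stages overlapped in both genotypes, by 1 late library or more. AP-1 means rose in *Pou5f1*-KO from −0.21 to −0.09 and in *Pou5f1* Ctrl from −0.15 to −0.03. KLF words fell from between −0.03 and 0.05 to between −0.11 and −0.06, and Ctrl stood at −0.12 and −0.13. KLF means also fell in *Pou5f1*-KO, from −0.01 to −0.08, and in *Pou5f1* Ctrl, from −0.15 to −0.20. For OCT-SOX words the *Sox2*-KO libraries stood at −0.45, −0.44, −0.46 and −0.28 in the early and −0.46, −0.46, −0.40 and −0.47 in the late stage, low at both. Ctrl libraries lay between 0.05 and 0.22 early and between 0.23 and 0.32 late, so the deficit of these windows was in place in the early ICM and the gap to Ctrl was wider in the late ICM. GATA words stayed at 0.05 to 0.31 and 0.08 to 0.26 in *Sox2*-KO, whereas in Ctrl the late libraries stood at −0.18 to −0.09 after −0.06 to 0.28.

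**Figure D4:**
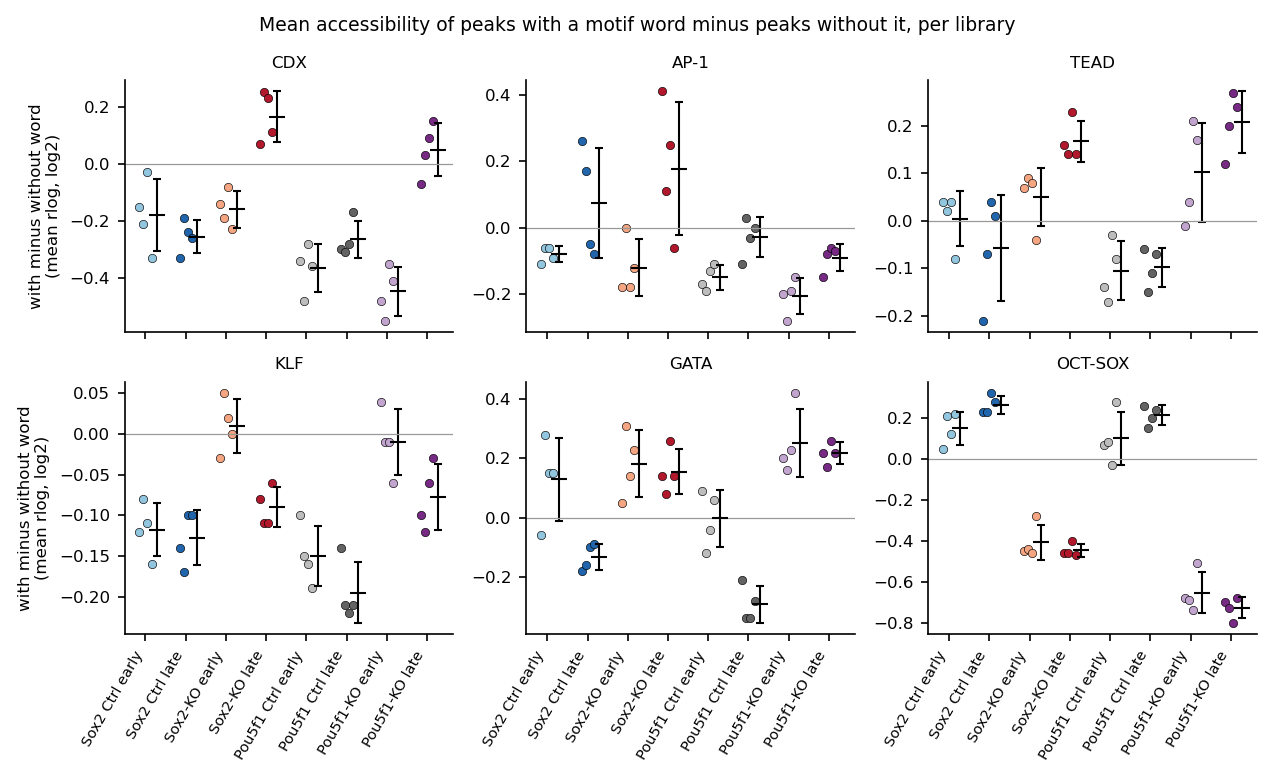
Mean rlog of peaks with a motif word minus that of peaks without it (log2, vertical axes of differing range) in each ICM library, with mean and SD of 4 libraries beside each condition. CDX words rise without overlap of the stages in *Sox2*-KO and *Pou5f1*-KO, with a smaller rise in *Pou5f1* Ctrl and none in *Sox2* Ctrl, GATA words fall in both Ctrl sets, and OCT-SOX words are low in both knockouts at both stages.

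Examples with a CDX word were among the called peaks near listed genes. The window in an intron of *Grb2*, the adaptor between receptor tyrosine kinases and Ras, at chr11:115689250-115689449, went from 5.01, 4.64, 4.62 and 5.19 to 5.75, 6.46, 5.74 and 6.23, by 1.18 (SE 0.29, adjusted p = 0.0371, limma). The window in a coding exon of *Grhl2*, an epithelial transcription factor, at chr15:37328225-37328424, went from 0.29, 0.93, 1.14 and 1.18 to 2.76, 2.56, 3.26 and 2.08, by 1.78 (SE 0.45, adjusted p = 0.0409). Stages did not overlap in either, the Ctrl steps were 0.79 and 1.15 and not called, and each call was lost without several single libraries. Capitals mark the CDX word on either strand (plus strand of GRCm38 printed).
Grb2: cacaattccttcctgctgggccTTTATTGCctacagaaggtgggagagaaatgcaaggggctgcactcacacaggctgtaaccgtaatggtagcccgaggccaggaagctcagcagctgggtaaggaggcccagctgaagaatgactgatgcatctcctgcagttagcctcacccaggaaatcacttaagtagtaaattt
Grhl2: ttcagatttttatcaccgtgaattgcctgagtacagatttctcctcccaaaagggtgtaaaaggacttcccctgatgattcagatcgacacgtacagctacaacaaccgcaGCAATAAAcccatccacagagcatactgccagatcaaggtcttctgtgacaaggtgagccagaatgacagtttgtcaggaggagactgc

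Naive pluripotency genes, those that mark the epiblast of the late blastocyst, had 166 peaks within 10 kb of a start site of 19 of the 20 listed genes. In *Sox2*-KO 1 increased and none decreased, beside 0.333% and 0.0669% of all peaks, so nothing about the list is read from this count. The median step was 0.14, against 0.30 in Ctrl and −0.01 over all peaks in *Sox2*-KO. The called peak lies 900 bp upstream of *Sall4*, a zinc finger partner of Oct4, at chr2:168768744-168768943. It went from 2.97, 3.65, 3.98 and 1.71 to 4.81, 4.76, 5.00 and 4.11, by 1.59 (SE 0.37, adjusted p = 0.0253, limma), with Ctrl at 3.22 and 3.15. The call was lost without early replicates 1 or 4 or late replicates 1, 2 or 3, and under 6 of 9 other settings. Its window is printed, plus strand of GRCm38, with the TEAD word in capitals.
Sall4: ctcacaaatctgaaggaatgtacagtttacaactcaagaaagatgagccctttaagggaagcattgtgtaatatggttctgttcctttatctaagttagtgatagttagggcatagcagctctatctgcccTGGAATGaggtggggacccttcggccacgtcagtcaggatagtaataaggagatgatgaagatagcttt

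None of the 9 enhancers that the study marks passed the test in the stage step. At the *Pecam1* enhancer, chr11:106724459-106724658, in a gene of an adhesion molecule of the epiblast, the values went from 2.84, 2.60, 3.16 and 3.66 to 1.01, 1.24, 1.83 and 2.09. The stages did not overlap, but the step of −1.52 (SE 0.42) had an adjusted p of 0.0654 from limma. Ctrl stood at 5.00 ± 0.35 and 5.38 ± 0.42 (SD, n = 4 each), and *Sox2*-KO was below it by −1.94 early (adjusted p = 0.00142) and −3.84 late (adjusted p = 5.24e-12). The window holds an OCT-SOX composite with 3 mismatches on the minus strand, in capitals below, within a window that is 69% repeat sequence (plus strand of GRCm38 printed).
Pecam1: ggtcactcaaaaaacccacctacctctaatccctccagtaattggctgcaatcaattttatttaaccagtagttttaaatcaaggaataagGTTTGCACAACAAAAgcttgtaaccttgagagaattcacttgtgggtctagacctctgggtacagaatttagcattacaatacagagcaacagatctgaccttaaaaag

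At the *Utf1* enhancer, near a chromatin-associated coactivator of pluripotent cells, *Sox2*-KO stood at 3.01 ± 0.78 and 3.29 ± 0.27 (SD, n = 4 each), below Ctrl at both stages, by −2.12 and −2.39 (adjusted p = 6.28e-05 and 1.12e-06, limma). At the *Klf2* enhancer it stood at 3.37 and 3.60, with −1.42 and −1.87 (adjusted p = 0.019 and 0.000156). These 2 windows were thus low before the late stage and did not pass the test between the stages, with steps of 0.28 (SE 0.38) and 0.23 (SE 0.38). *Prdm14* had 2.64 ± 0.86 and 1.56 ± 0.44 (SD, n = 4 each), a step of −1.08 (adjusted p = 0.271), and was lower than Ctrl by −0.96 early (adjusted p = 0.374) and −1.66 late (adjusted p = 0.0093, limma). *Sox2* SRR2 had 2.32 and 2.63, lower than Ctrl by −1.27 early (adjusted p = 0.118) and −1.53 late (adjusted p = 0.0131, limma), so both passed the threshold against Ctrl at the late stage, and their steps differed from those of Ctrl by −0.71 (SE 0.64) and −0.26 (SE 0.61), short of the threshold. The distal and proximal *Nanog* enhancers had steps of 0.42 (SE 0.17) and 0.26 (SE 0.33) and *Pou5f1* CR4 and *Klf4*-B of 0.25 and 0.14, and none of these 4 passed the threshold against Ctrl at either stage. The distal *Nanog* enhancer was 6.85 ± 0.17 and 7.27 ± 0.13 in *Sox2*-KO and 6.72 ± 0.12 and 7.20 ± 0.20 in Ctrl (SD, n = 4 each), and the genotypes did not differ beyond the threshold at either stage (adjusted p = 0.844 and 0.898, limma).

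For each naive gene the peak with the smallest p within 10 kb was also read. Apart from *Sall4* none passed the threshold. Those with the smallest adjusted p were the *Pecam1* window, a window with an AP-1 word in an intron of a *Pou5f1* transcript that went from 2.79 ± 0.72 to 4.26 ± 0.13 (SD, n = 4 each; step 1.47, adjusted p = 0.0675, limma) and a window in *Tfcp2l1*, a factor of naive self-renewal, from 5.72 ± 0.41 to 6.70 ± 0.04 (SD, n = 4 each; step 0.98, adjusted p = 0.0749). At *Fgf4*, the signal from epiblast to endoderm, values went from 2.58, 3.23, 3.27 and 3.66 to 1.99, 1.80, 2.00 and 2.78 (step −1.04, adjusted p = 0.263), and late *Sox2*-KO was below late Ctrl by −1.33 (adjusted p = 0.04, limma). At *Zfp42* and *Klf2*, by contrast, windows in late *Sox2*-KO were above late Ctrl, by 1.02 and 1.43 (adjusted p = 0.0338 and 0.0158). These windows were chosen on the late *Sox2*-KO libraries, so the differences from Ctrl are given as a description.

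Over 14 gene lists, 16 of 1867 peaks within 10 kb of 249 genes increased (0.857%) and 1 decreased (0.0536%), beside 0.333% and 0.0669% of all peaks. Trophectoderm genes had no called peak among 161 within 10 kb, and 5 increased and none decreased among 434 within 50 kb. The median step within 10 kb was 0.23 and 68.3% of the peaks were higher late, against 48.9% of all peaks. Peaks near other listed genes stood above all peaks too, with 61.2% higher late and a median of 0.20 for housekeeping genes and 66.7% and 0.16 for FGF and ERK genes. In Ctrl the median step of the trophectoderm list was 0.02. The part of trophectoderm or endoderm cells left in the ICMs in the steps above was not tested. Primitive endoderm genes had 1 increased peak of 125 and a median of 0.18. That peak, upstream of *Lamb1*, which encodes a laminin chain of basement membranes, went from 1.73, 1.61, −0.08 and 1.34 to 3.34, 3.30, 2.68 and 2.97, by 1.92 (adjusted p = 0.0214, limma).

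Hippo pathway genes, which restrain or carry YAP and TEAD activity, had 3 increased and no decreased peaks of 214 and a median step of 0.25 (0.11 within 50 kb). Over all peaks 0.333% increased and 0.0669% decreased, and the small counts of these lists are a description. In *Nf2*, the upstream tumour suppressor merlin, a window went from between 2.60 and 3.30 to 3.99, 4.78, 4.15 and 4.74, without overlap, by 1.59 (SE 0.35, adjusted p = 0.0173, limma). In *Amot*, a scaffold that holds YAP at junctions, a window with an AP-1 word went from 1.12, −0.71, −0.63 and −0.44 to 2.01, 1.17, 2.01 and 0.57, so that the stages overlapped (step 1.60, adjusted p = 0.0299). Cell adhesion and polarity genes had 5 increased and 1 decreased peaks of 199, among the increased ones windows at *Pard6b*, a polarity protein, by 1.77 (adjusted p = 0.031, limma), and at *Dsp*, desmoplakin, by 1.84 (adjusted p = 0.024). These 2 are named after their values were seen. A window that is wholly repeat sequence in the gene of the integrin subunit *Itgb1* fell by −1.61 (adjusted p = 0.0378), and that call was lost without any one of the 8 libraries.

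Signalling lists had single calls, beside 0.333% increased and 0.0669% decreased of all peaks. Nothing about a list is read from 1 peak, here or in the lists that follow. Of 174 peaks near FGF and ERK genes the *Grb2* window increased. Of 119 near LIF, gp130 and STAT3 genes a window 3525 bp upstream of *Il6ra*, the interleukin 6 receptor, did, from 2.09, 2.88, 1.74 and 2.67 to 4.21, 3.99, 3.94 and 4.56, by 1.83 (SE 0.39, adjusted p = 0.0135, limma). It increased in *Pou5f1*-KO too, by 1.71 (adjusted p = 0.0063), and its step in *Sox2* Ctrl was 0.90 (adjusted p = 0.326). Of 130 near Nodal, BMP and WNT genes a window in *Smad7*, the inhibitory Smad, increased from 4.16, 4.81, 4.01 and 4.0 to 6.07, 6.07, 5.94 and 5.06, by 1.54 (adjusted p = 0.0387). The lists of DNA and histone modifiers (211 peaks), p53 targets and apoptosis (95) and formative and primed state (106) had 1 increase each, at *Trim28*, the KAP1 corepressor, by 0.66, at *Mcl1*, an anti-apoptotic protein, by 1.43, and at *Grhl2*. Glycolysis (134), germline (59) and housekeeping genes (85) had none in either direction at an adjusted p under 0.05 from limma. The median step of the glycolysis list was −0.15 within 10 kb and −0.03 within 50 kb.

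Some genes were nearest to several increased peaks and are named here after their values were seen. Of all peaks 0.333% increased. The chaperone gene *Hsp90aa1* had 4 of its 17 nearest peaks increased, by 1.02 to 1.47, at 218 to 4967 bp from a start site. In Ctrl their steps were 0.47 to 1.15, and none was called as a step difference. The genes *Id2*, an inhibitor of bHLH factors, *Myh9*, nonmuscle myosin, *Adh1* and *Ddah1* had 3 each. Some of these windows lie close together and may not be separate elements. Examples are those of *Hsp90aa1* at 218, 620 and 1151 bp and of *Adh1* at 25 and 511 bp from a start site. For *Adh1*, alcohol dehydrogenase, the window 25 bp from the start site rose by 2.14 (adjusted p = 0.0092, limma), with a Ctrl step of 0.20. The *Id2* windows lie 35108 to 72580 bp away and rose by 1.09 to 2.06.

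Whether a step was particular to *Sox2*-KO was tested as the difference of the 2 steps in 1 model. It was more positive in *Sox2*-KO at 4 peaks (0.00262%) and more negative at 25 (0.0164%), and of the 507 peaks increased in *Sox2*-KO 2 passed this test. With the 16 *Sox2*-line ICM libraries alone the counts were 0 and 4, and for peaks whose mean rlog reached the median 0 and 0. With 1 of the 16 libraries left out, the more positive peaks ranged from 0, without late Ctrl replicate 1, to 14, without early *Sox2*-KO replicate 2, and the more negative from 7, without late Ctrl replicate 1, to 38, without late Ctrl replicate 3. The 4 more positive peaks were in introns of *Anxa3*, a calcium-dependent membrane binder, *Sgpp2*, a sphingosine phosphate phosphatase, *Cap1*, an actin regulator, and *Cald1*, caldesmon. The *Sgpp2* window, at chr1:78322565-78322764, went from 1.49, −0.47, 0.62 and 1.06 to 3.21, 2.95, 3.02 and 2.35 in *Sox2*-KO and from 1.29, 1.05, 1.19 and 1.83 to −0.34, 1.28, 0.80 and 0.93 in Ctrl. All late *Sox2*-KO libraries were the highest of the 16, and the difference of steps was 2.88 (SE 0.55, adjusted p = 0.0128, limma). The *Anxa3* window went from 0.96, 2.72, 1.68 and 2.28 to 3.8, 2.32, 3.12 and 3.76 in *Sox2*-KO, where the stages overlapped. In Ctrl it fell from 3.28 ± 0.56 to 1.43 ± 0.71 (SD, n = 4 each), and the steps differed by 3.2 (adjusted p = 0.0128). The calls at *Cap1* (2.18) and *Cald1* (2.15, adjusted p = 0.0499) were kept in 11 and 2 of the 16 fits that left out a library.

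Of the 25 negative differences, 23 were peaks that increased in Ctrl and 1, in *Vps13d*, a peak that decreased in *Sox2*-KO. The largest was at chr11:62845805-62846004 in an intron of *Trim16*, a ubiquitin ligase, near the start of *Fbxw10*. Ctrl went from 1.93, 1.07, 0.26 and 0.34 to 4.5, 4.64, 3.2 and 3.7, and *Sox2*-KO from 0.68, −0.08, 0.63 and 1.58 to −0.12, 0.04, 0.55 and 0.33. All 4 late Ctrl libraries stood above the other 12, and the difference of steps was −3.62 (SE 0.60, adjusted p = 0.00388, limma). It was called in each of the 16 fits that left out a library. Near *Cd38*, an NAD-consuming enzyme, at chr5:43860760-43860959, Ctrl went from 1.17, 0.82, 0.63 and 1.71 to 5.00, 4.39, 4.01 and 4.59, and *Sox2*-KO from 2.18, 1.63, 0.43 and 2.23 to 1.78, 1.25, 0.84 and 2.55, a difference of −3.43 (SE 0.60, adjusted p = 0.00786). Near *Gm438*, a predicted gene, at chr4:144807193-144807392, Ctrl went from 0.47 ± 0.63 to 4.0 ± 0.57 and *Sox2*-KO from 0.36 ± 0.21 to 0.45 ± 0.45 (SD, n = 4 each), and the steps differed by −3.43 (adjusted p = 0.0128). *Sox2*-KO thus lacked increases that Ctrl had at these windows.

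The windows near *Cd38* and *Gm438* are 92% and 81.5% repeat sequence and share a word of 14 bases, chosen after the results were seen because it recurred in the peaks increased in Ctrl. It was in 358 windows, 0.235% of all, and in 72 of the 723 peaks increased in Ctrl. The 358 windows have a median repeat share of 78%, and 47.8% of them hold the ESRRB word. Reads from copies of a repeat are hard to place, and the authors kept only uniquely mapped reads. The 2 windows are printed on the plus strand of GRCm38, with the word or its reverse complement in capitals.
Cd38: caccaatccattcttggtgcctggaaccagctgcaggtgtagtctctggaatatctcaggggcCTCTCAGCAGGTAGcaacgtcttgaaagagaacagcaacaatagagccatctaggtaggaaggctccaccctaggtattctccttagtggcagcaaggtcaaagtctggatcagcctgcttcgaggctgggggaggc
Gm438: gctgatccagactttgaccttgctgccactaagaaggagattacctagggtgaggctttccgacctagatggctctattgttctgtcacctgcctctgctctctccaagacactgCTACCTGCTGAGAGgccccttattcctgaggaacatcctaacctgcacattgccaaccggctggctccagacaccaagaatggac

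Mean rlog of the 358 windows was 1.79, 1.88, 1.80 and 2.14 in the early and 1.90, 1.64, 2.09 and 1.89 in the late *Sox2*-KO libraries. It was 2.62 to 3.07 in early and 4.15, 3.83, 3.47 and 3.63 in late Ctrl libraries. *Sox2*-KO thus stood below Ctrl at both stages and did not rise, while Ctrl did, which the word's choice from the Ctrl step favoured. In *Pou5f1* Ctrl, which took no part in the choice, the means were 3.22 and 3.46, and in *Pou5f1*-KO 2.50 and 2.20. Of the windows, 4 increased and 1 decreased in *Sox2*-KO, beside 0.333% and 0.0669% of all peaks. Among the 25 negative step differences 5 held the word. Most of these 25 were increased in Ctrl, where the word was chosen, so nothing is read from that number. A word of the same kind from the peaks increased in *Sox2*-KO was in 410 windows. The 10 of them that increased in that step are the peaks the word was chosen from, so nothing is read from their number beside the 0.333% of all peaks, and none decreased.

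**Figure D5:**
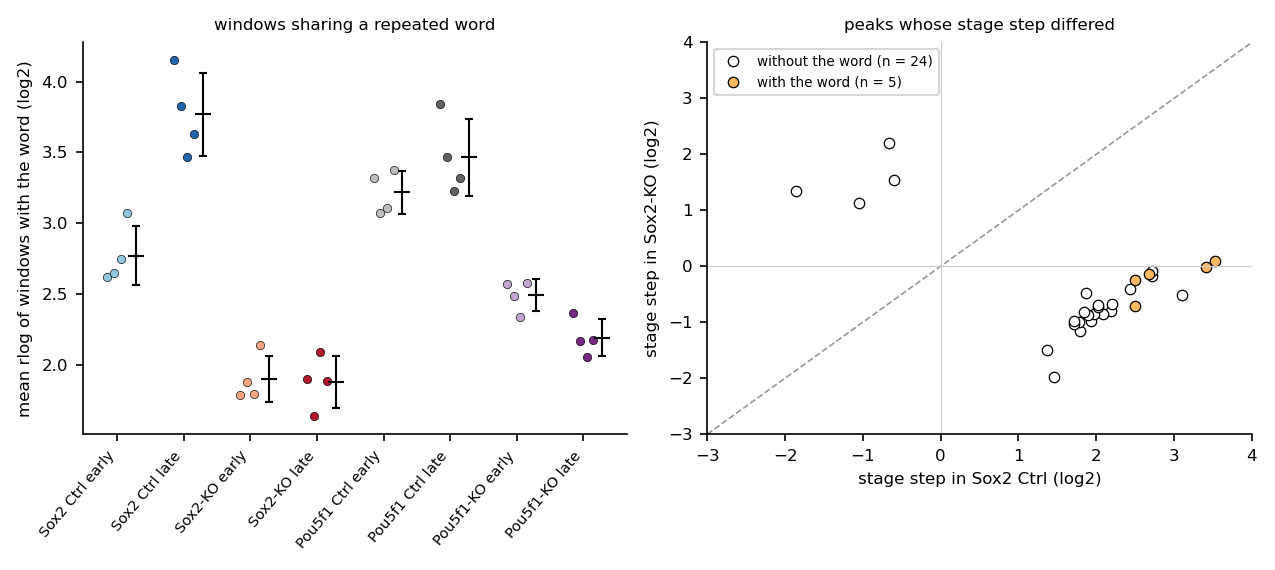
Left, mean rlog (log2) over the 358 windows that share a 14-base repeated word, in each ICM library, with mean and SD of 4 libraries. Right, the stage step in *Sox2*-KO against that in *Sox2* Ctrl (log2) at the 29 peaks called for a step difference, 5 of them with the word, with a dashed line of equal steps; 25 lie below it with a higher step in Ctrl.

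*Sox2*-KO and *Pou5f1*-KO steps were also compared, though the 2 come from different mouse lines, so line and gene cannot be told apart. The *Sox2*-KO step was more positive at 37 peaks (0.0243%) and more negative at 13 (0.00853%), and with quantile normalization or with GC content removed at 2 and 1. The *Sgpp2* window was among the first, with a *Pou5f1*-KO step of −0.40 (adjusted p of the difference 0.039, limma), and the *Ccdc39* window among the second, with 0.73 (adjusted p = 0.0482). Peaks increased in Ctrl had a median step of 0.24 in *Sox2*-KO, with 62.7% positive, and −0.08 in *Pou5f1*-KO, with 42.7% positive. Only 23 of those 723 peaks passed the test of a step difference between *Sox2*-KO and Ctrl.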

How the data were processed

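ATAC-seq libraries of pooled mouse ICMs were analysed as deposited. The authors trimmed reads with SeqPurge, aligned to mm10 by Bowtie2, took out duplicates by Picard, kept uniquely mapped reads, called peaks with MACS2, merged the summits into 200 bp windows and counted insertions with BEDTools. The deposited log2 values are the authors' rlog values (DESeq2) over all libraries, which correct for depth and pull weak peaks toward their mean, so steps at weak peaks are understated. Deposited condition means differed from means of the libraries by at most 4.3e-08 and were not used. Replicate numbers and groups are those of the sample titles.

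limma 3.58.1 (R 4.3.3) fitted a mean per condition to all 44 libraries with a trend, no covariate, no filter and 32 residual degrees of freedom. The median residual SD was 0.589. Adjusted p-values are Benjamini-Hochberg values over 152393 peaks, two-sided. The fit was also run on simulated data, and no result here rests on that run. Positions, words and genes used GRCm38 and GENCODE vM21 (141767 transcripts) with Python 3.11.15, numpy 2.4.6, pandas 2.3.3 and scipy 1.17.1. Words were matched exactly on both strands except the OCT-SOX composite, and 4 windows with an unknown base were kept.

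Named peaks are the 10 largest increases and decreases without overlap, the study's 9 enhancers, the most extreme step differences, up to 2 called peaks per direction and gene list within 10 kb, the peaks within 2 kb of Sox2, and the peak of smallest p near each naive gene. Peaks of 1 gene that this rule names are not reported here. The comparison, lists and words were chosen with earlier results of these data known. Alternatives were other sets of libraries, peaks whose mean rlog reached the median, quantile normalization, no trend, removal of GC content and level, the promoter minus distal signal as a covariate, a minimum log2 difference of 1, a replicate block, a list distance of 50 kb, 2 mismatches and each library left out. Word steps under these settings, and the recurring words, were added after seeing the data.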

Additional observations from a re-analysis of the deposited data

Results flagged for a closer look

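Single libraries stood far from the other 3 of their group in 8 of 180 groups checked (4.44%), and chance gives about 1 in 20. These were late *Sox2*-KO replicate 3 at the *Mak* window (3.74), late replicate 4 at *Smad7* (5.06) and at the *Esrrb* window (5.58), early replicate 1 at *Amot* (1.12), early replicate 2 at *Nr5a2* (4.01), early replicate 4 for TEAD words (−0.04) and OCT-SOX words (−0.28), and late replicate 2 for the mean of peaks near DNA and histone modifiers minus all peaks (0.86).

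The stage step differed between *Sox2*-KO and Ctrl by limma at 4 peaks with a more positive and 25 with a more negative step in *Sox2*-KO. The named differences, *Sox2*-KO step minus Ctrl step, were 3.2 at *Anxa3*, 2.88 at *Sgpp2*, 2.18 at *Cap1*, 2.15 at *Cald1*, −3.62 at the window of *Fbxw10* and *Trim16*, −3.43 at each of *Gm438*, *Vps13d* and *Cd38*, and −3.21 near *Col3a1*, a fibrillar collagen gene. Between *Sox2*-KO and *Pou5f1*-KO the step differed at 37 peaks with a more positive and 13 with a more negative value in *Sox2*-KO. At the *Col3a1* window, 75% repeat sequence, *Sox2*-KO went from 1.1, 2.08, 0.11 and 0.43 to −0.07, 0.58, 0.04 and 0.33, while Ctrl went from 1.02 to 3.53.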

How the results depend on the processing

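The direction of every called named peak was kept under the alternatives that gave it a value, but the counts moved. Increased peaks in *Sox2*-KO numbered 277 with the 8 *Sox2*-KO libraries alone, 167 with the 16 *Sox2*-line ICM libraries, 291 with quantile normalization and 211 without the trend, and decreased peaks 24, 13, 67 and 54, then 166 with GC content and level removed and 164 with the promoter minus distal covariate. With 1 library left out the increased peaks ranged from 65 to 1064 and the decreased from 20 to 182. More positive step differences from Ctrl numbered 0 with 16 libraries and 0 for peaks whose mean rlog reached the median (0 to 14 with 1 of 16 libraries left out), where limma has 5743 peaks at an unadjusted p under 0.05 over all peaks. More negative ones numbered 4 with 16 libraries, 0 for peaks that reached it, 13 with quantile normalization and 41 without the trend (7 to 38 with 1 library left out). Of peaks that reached the median rlog, 428 increased and 82 decreased in *Sox2*-KO, 201 and 74 in Ctrl and 1212 and 672 in *Pou5f1*-KO. Among them the step differed between the knockouts at 20 and 3. Over all peaks that difference went from 37 and 13 to 2 and 1 with quantile normalization and to 2 and 1 with GC content removed. Decreased Ctrl peaks numbered 288 and 318 under quantile normalization and GC removal, and increases made up 69.2% and 69.8% of the Ctrl calls in place of 79.7%. The causes were not tested.

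Replicate numbers did not pair the stages: same-number correlations of *Sox2*-KO early and late deviations were −0.0594, −0.0611, −0.0956 and 0.0294. Between *Sox2*-KO and Ctrl they were 0.221, 0.0859, 0.104 and 0.293 in early and 0.0903, −0.0248, 0.0153 and 0.0383 in late ICM, so early libraries of 1 number deviated together in part, but not every pair was over 0.1. With the replicate block 179 peaks increased and 10 decreased in *Sox2*-KO, and the step differed from Ctrl at 30 positive and 39 negative peaks.

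Values near 0 that were not called changed sign: the step of *Pou5f1* CR4 to −0.05 and of *Klf4*-B to −0.03 with quantile normalization, *Klf4*-B to −0.24 and the *Klf2* enhancer to −0.07 with GC content removed, and the upstream *Sox2* window to 0.05 and 0.07 under those 2. Without early replicate 3 the *Klf2* value was −0.19 (range −0.19 to 0.56), and without early replicate 4 the *Sox2* value was 0.03 (−0.21 to 0.03). The morula line step ranged from −0.05 to 0.01.

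OCT-SOX composites with at most 2 mismatches were in 0.394% of increased, 0% of decreased and 1.02% of all peaks. The median step of Hippo genes was 0.11 and of glycolysis genes −0.03 within 50 kb. With 1 library left out, the word shares of increased and decreased peaks ranged for AP-1 from 17.5% to 40.1% and 0% to 5.08%, CDX from 2.63% to 6.12% and 0% in each, KLF from 1.54% to 6.69% and 12.9% to 23.5%, OCT-SOX from 1.54% to 4.76% and 0% to 6.78%, and TEAD from 11.6% to 16.3% and 0% to 3.92%. The separation ranged from 1.07 to 1.17 and the step on the *Sox2* Ctrl line from 0.19 to 0.22.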
